A study of Mus musculus with 80 samples.

Results

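The potassium channel genes described here are 59 genes that encode pore-forming subunits of potassium channels, together with the cytosolic Kv beta subunits and the modulatory subunits of the voltage-gated family. They were chosen by gene symbol, as every symbol in the authors' filtered expression table that starts with Kcna, Kcnb, Kcnc, Kcnd, Kcnf, Kcng, Kcnh, Kcnj, Kcnk, Kcnma, Kcnn, Kcnq, Kcns, Kcnt or Kcnv, leaving out Kcnj13 and opposite-strand transcripts. They are 59 of the 13016 genes of that table, which lists genes with a level of at least 5 CPM in at least 8 of 77 libraries, out of 27179 genes counted. CPM is a gene's read count scaled to a common library total. This rule uses no measured difference between groups, though it was set with earlier results of these data known. Of 22 further annotated genes with these prefixes, Kcng2, Kcnv1 and Kcnq1ot1 passed the filter but had no symbol in the table. Most of the others, such as Kcnk18 and Kcnj1, did not reach the filter.

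The study asked whether having raised a litter leaves lasting differences in gene expression in the female brain. Virgin females were compared with primiparous females, which had mated at 8 weeks of age, given birth once and nursed their pups. All were C57BL/6 mice (C57BL/6J in the study's methods) of matched age, housed in 1 room and harvested on 1 day. The labels place the harvest 3 weeks after weaning, while the study's methods give a longer interval, and only the primiparous females had lived with a male, while the virgin females shared cages, so that these conditions and motherhood cannot be told apart. RNA from 1 mouse and 1 region went into each library, so the replicates were animals. Each region was represented by 8 primiparous mice, and by 8 virgin mice in the hypothalamus and the neocortex or 7 in the cerebellum, hippocampus and amygdala. The whole hypothalamus was used, and of the other regions the left side. The libraries of each region were pooled for sequencing, so region and sequencing pool cannot be told apart.

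Potassium channels let potassium leave the cell, which holds the resting potential, ends the action potential and sets how soon the next spike can follow. Voltage-gated Kv channels open on depolarization, and their subfamilies differ in speed and threshold: Kv3 channels let neurons fire at high rates, Kv4 channels carry the transient A-type current of dendrites, and Kv7 channels carry the M-current that transmitters suppress. Inward rectifiers of the Kir family hold the cell near the potassium equilibrium potential, and the GIRK members among them are opened by G-protein-coupled receptors. The two-pore-domain channels carry background leak, and the BK and SK channels respond to calcium. Brain regions are known to differ in the mixture of subunits that their neurons and glia express.

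The libraries held 7959192 to 37871854 counted reads, with a median of 17623886. Markers of the hypothalamus and the cerebellum followed the labels: the summed level of 5 hypothalamic neuropeptides was 776 to 1421 CPM in the hypothalamus and at most 70.4 CPM elsewhere, and that of 4 cerebellar granule cell genes was 2592 to 3572 CPM in the cerebellum. Outside the cerebellum the granule cell sum was at most 33.1 CPM, except in the hippocampus library of primiparous mouse 413, where it was 264.4 CPM. In that library 14 potassium channel genes lay above every other hippocampus library and 3 below, as did 8.87% and 5.99% of all 13016 genes. Kcng4, for example, was at 41.8 CPM there and at 8.18 to 12.1 CPM in the rest. Without that library the numbers of region-high, region-low and pairwise calls given below were the same. The sum of 4 excitatory neuron genes overlapped between the hippocampus (1433 to 1678 CPM), neocortex (1357 to 1788 CPM) and amygdala (926.2 to 1673 CPM). Dissections varied in more than that library: the sum of 7 choroid plexus genes ran from 66.8 to 3997 CPM in the hippocampus and 44.8 to 3642 CPM in the cerebellum.

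The level of most potassium channel genes depended on the region. A gene was called region-high when it was at least 2-fold above the geometric mean of the other 4 regions with an adjusted p under 0.05, in edgeR's quasi-likelihood test over all 77 libraries with Benjamini-Hochberg adjustment over 13016 genes. The cerebellum had 12 such members (20.3%, against 7.55% of all genes tested), the hypothalamus 7 (11.9%, against 6.58%), the hippocampus 13 (22%, against 4.56%), the neocortex 14 (23.7%, against 4.28%) and the amygdala 10 (16.9%, against 5.05%). By the same rule 26 members were low in the cerebellum (44.1%, against 12.4% of all genes), 11 in the hypothalamus (18.6%, against 5.76%), 5 in the hippocampus (8.47%, against 3.41%), 4 in the amygdala (6.78%, against 1.91%) and 2 in the neocortex (3.39%, against 3.76%). In all, 43 members were called in at least 1 region in either direction (72.9%, against 27.1% of all genes). The cerebellum held the lowest mean of 29 members (24.82% of all genes were lowest there) and the highest mean of 18, a smaller share than the 37.09% of all genes that were highest there. Of the 59 members, 37 reached the filter within every region. Kcnj5 and Kcnk6 reached it in 1 region alone, and 4 members, among them Kcna5, Kcnh4 and Kcnk10, in 2, so for these 6 genes the filter itself asked for a high region and their regional differences are a description. They account for 2 of the 7 high calls of the hypothalamus, 2 of the 10 of the amygdala, 1 of the 12 of the cerebellum and 1 of the 14 of the neocortex. Low calls among the 6 were Kcnj5, Kcna5, Kcnh4 and Kcnk6 in the cerebellum, Kcnj5 and Kcna5 in the hippocampus and Kcnj5 in the neocortex.

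**Figure D1:**
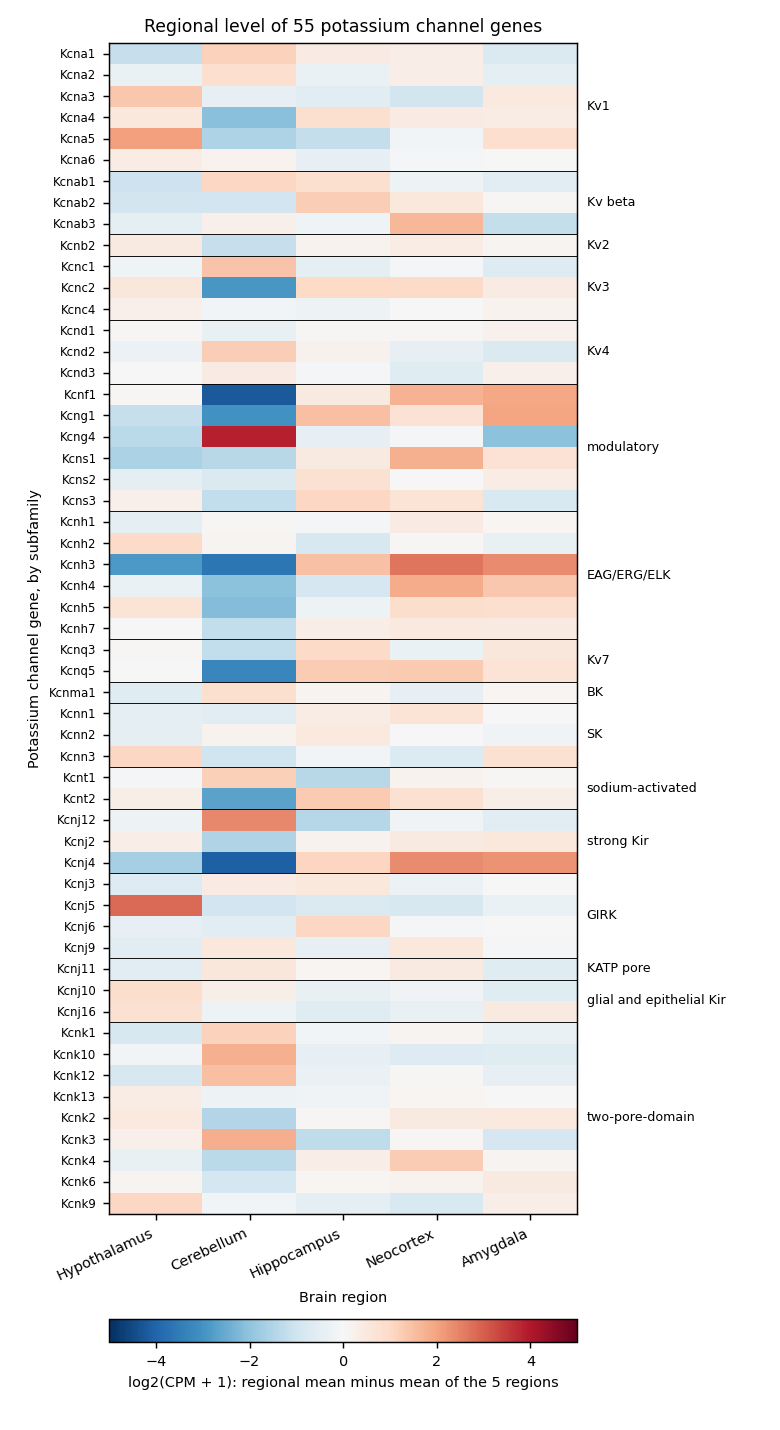
Level of 55 of the genes (rows, grouped by subfamily) in each region (columns), as the regional mean of log2(CPM + 1) minus the mean over the 5 regions, red above and blue below that mean. The strongest colours are in the cerebellum column, where Kcng4 is high and Kcnf1, Kcnj4, Kcnh3 and Kcnq5 are low, and in the hypothalamus cell of Kcnj5.

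Kcng4 and Kcnj12 were prominent in the cerebellum. Kcng4 encodes a modulatory subunit that carries no current alone and joins Kv2 subunits. It was at 206.3, 249.3 and 285.5 CPM in the lowest, median and highest cerebellar library, and at no more than 41.8 CPM in any other library of the series. Its log2 difference from the mean of the other regions was 4.92 (SE 0.0853, edgeR adjusted p = 1.3e-58), and its cerebellar mean was 16.4 times that of the neocortex, the next region. Kcnj12, a strong inward rectifier, reached 93.3 to 120 CPM with a median of 105.6 in the cerebellum and at most 22 CPM in other regions, a log2 difference of 3.00 (SE 0.0553, adjusted p = 6.3e-61). For both genes the cerebellar libraries did not overlap those of any other region.

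A further 9 cerebellum-high members fell into a few roles. Among them were 4 two-pore-domain genes, Kcnk10 (log2 difference 2.38), Kcnk3 (2.23), Kcnk12 (1.86) and Kcnk1 (1.36), and a further Kv3 gene, Kcnc1 (1.70), at 816.6 ± 97.1 CPM (SD, n = 15). The sodium-activated channel gene Kcnt1 (1.45), the A-type channel gene Kcnd2 (1.45), the axonal Kv1 gene Kcna1 (1.34) and the Kv beta gene Kcnab1 (1.18) also belonged to the group. Kcnt1 varied widely among cerebellar libraries, from 195.8 to 510.2 CPM. In total 11 of the 59 members lay in the cerebellum above every library of the other regions, as did 8.13% of all genes.

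The cerebellum-low members included genes that were abundant in the forebrain. Kcng1, another modulatory subunit gene, had the largest negative log2 difference, -6.50 (SE 0.228, adjusted p = 9e-40), with 0.18 ± 0.119 CPM (SD, n = 15) in the cerebellum and 37.7 ± 8.42 CPM (n = 15) in the amygdala. Of 15 cerebellar libraries 3 held no Kcng1 read, and all 15 together held 50, so the size of this difference rests on few reads. Kcnj4, a strong inward rectifier, followed at -6.26, Kcnf1, a modulatory subunit, at -5.85, Kcnh3, of the ELK type, at -5.07, Kcnt2, a sodium-activated channel, at -4.93 and Kcnq5, a Kv7 subunit, at -4.62. Within Kv3 the subunits parted: Kcnc2 was at 7.25 ± 1.94 CPM in the cerebellum, a log2 difference of -3.86, where Kcnc1 was at its highest.

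The hypothalamus was led by Kcnj5, the GIRK subunit best known from the heart's pacemaker tissue. Its hypothalamic libraries held 14.6, 16.4 and 21.6 CPM as lowest, median and highest value. In no library of another region did it exceed 2.21 CPM, and 1 cerebellar and 1 amygdala library held no read of it. The log2 difference was 4.86 (SE 0.142), and the hypothalamic mean was 15.6 times that of the amygdala. Kcnj5 reached the filter through its hypothalamic libraries alone, so these values describe it and are no test. The other GIRK genes did not share this order: Kcnj3 had its lowest mean (27.6 ± 4.37 CPM, n = 16) and Kcnj9 its lowest mean (79.4 ± 7.33 CPM) in the hypothalamus, and Kcnj6 was highest in the hippocampus (53.7 ± 6.65 CPM).

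Kcna5 and Kcna3, both of the Kv1 subfamily, came next in the hypothalamus. Kcna5 ran from 16.6 through 22.6 to 31.9 CPM there and from 5.21 to 13 CPM in the amygdala, the next region, and its log2 difference was 2.91 (SE 0.104), which is a description for the same reason. Kcna3 ran from 20.8 through 26.5 to 31.3 CPM, above every library of the other regions, with a log2 difference of 1.70 (SE 0.0955, adjusted p = 1.2e-27). The remaining hypothalamus-high members were the SK channel gene Kcnn3 (1.25), the leak channel gene Kcnk9 (1.24), and Kcnh2 (1.11) and Kcnh5 (1.03) of the EAG/ERG/ELK subfamily. Kcnh5 was higher still in the neocortex (1.52) and the amygdala (1.45), at means of 13.7 and 12.9 CPM against 11.3 CPM in the hypothalamus and 0.739 CPM in the cerebellum. Kcnn3 did not differ between the hypothalamus (37.2 ± 5.1 CPM) and the amygdala (30.8 ± 4.08 CPM) at the threshold. Kcnh3 had the largest negative difference, -3.87 (SE 0.0867, adjusted p = 7.6e-54), at 1.5 to 7.79 CPM against at least 78.8 CPM in every hippocampus, neocortex and amygdala library.

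**Figure D2:**
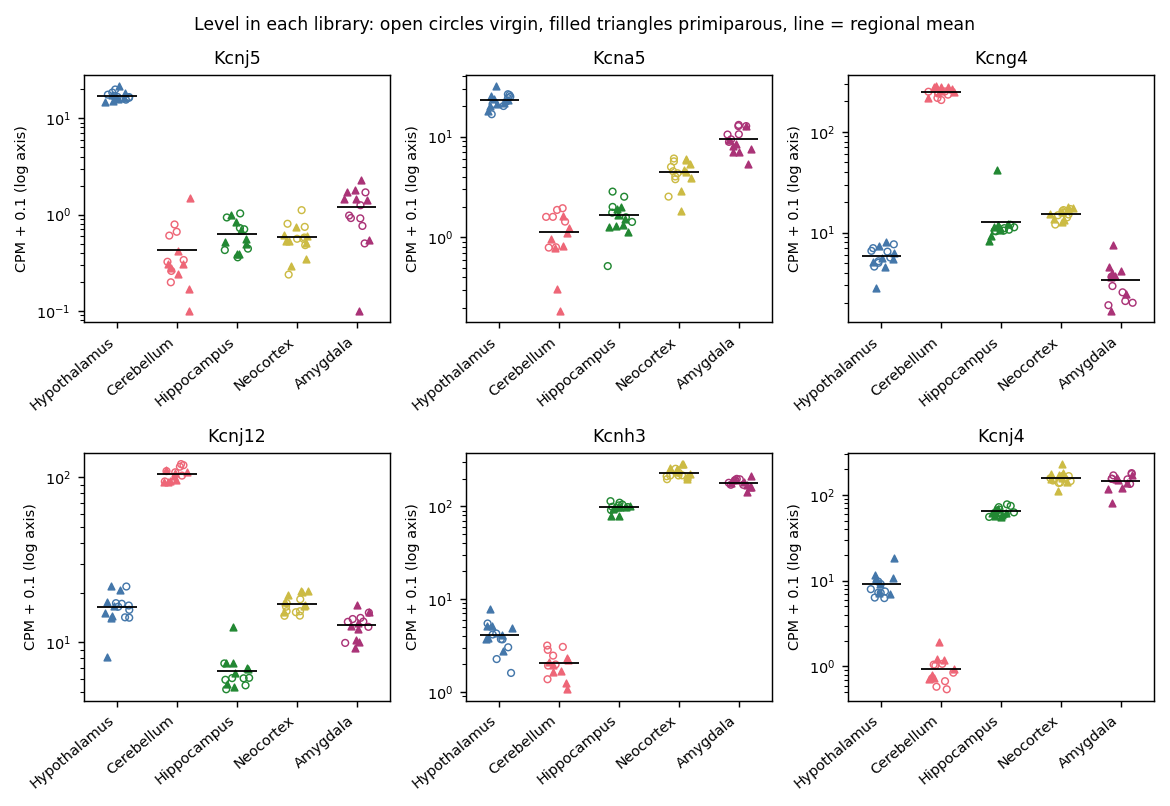
Level of 6 genes in each library, in CPM plus 0.1 on a log axis, by region, with open circles for virgin and filled triangles for primiparous mice and a line at the regional mean. Kcnj5 and Kcna5 are highest in the hypothalamus, Kcng4 and Kcnj12 in the cerebellum, and Kcnh3 and Kcnj4 in the hippocampus, neocortex and amygdala. The hippocampus triangle of Kcng4 at 41.8 CPM is primiparous mouse 413.

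The hippocampus, the neocortex and the amygdala shared several leading genes. Kcnh3 was at 98.4 CPM as median in the hippocampus, 220.1 CPM in the neocortex and 179.7 CPM in the amygdala, with log2 differences of 2.11, 3.62 and 3.21. Kcnj4 had medians of 61.5, 154.8 and 153 CPM in the same order, and its neocortical and amygdala levels did not differ at the threshold. Kcng1 led the hippocampus (2.70, SE 0.115) and the amygdala (3.31, SE 0.113), and Kcnh4, an ELK gene, was the third gene of the neocortex (2.96, SE 0.0891), at 19.9 ± 3.96 CPM there (n = 16) and 2.28 ± 0.699 CPM in the hippocampus (n = 15). Kcnf1 was highest in the amygdala (222 ± 35.1 CPM) and neocortex (194.5 ± 23.1 CPM).

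Some members distinguished the hippocampus, the neocortex and the amygdala from each other. Kcnab2, a Kv beta gene, was at 704.6, 913.8 and 1022 CPM in the hippocampus, above every library of the other regions. Kcnt2 was the second gene of the hippocampus, at 2.11 (SE 0.0976), with 23.4 ± 3.37 CPM there. Its hippocampal mean was 1.41 times the neocortical and 44.35 times the cerebellar mean. The hippocampal libraries overlapped those of other regions for this gene. Kcnj6 and the Kv7 gene Kcnq3 were also hippocampus-high, at 1.38 and 1.26. The hippocampal mean of Kcnj6 was 2.02 times that of the amygdala, without overlap with other regions. That of Kcnq3 was 1.3 times the amygdala mean, with overlap. Kcnj12 had the hippocampus's largest negative difference, -1.83. Its hippocampal libraries lay between 5.1 and 7.43 CPM apart from primiparous mouse 413 at 12.3 CPM. Kcnab3, a further Kv beta gene, was at 80.9 to 116 CPM in the neocortex with a median of 96.6, 2.7 times the cerebellar mean, and at 12.7 ± 2.54 CPM in the amygdala. Kcns1, a modulatory subunit gene, was at 32.9 ± 4.75 CPM in the neocortex and 15.5 ± 3.32 CPM in the amygdala. The lowest gene relative to the other regions was Kcnj5 in the neocortex (-1.44) and Kcng4 in the amygdala (-2.75).

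Across pairs of regions, 54 of the 59 members were called at least 2-fold apart in at least 1 of 10 pairs (91.5%, against 37.8% of all genes). At 2-fold and an adjusted p under 0.05, 41 members separated the hypothalamus from the cerebellum (21.8% of all genes did so), 36 the cerebellum from the hippocampus (21.5%), 35 the cerebellum from the neocortex (20.9%) and 41 the cerebellum from the amygdala (22.7%). The hypothalamus differed from the hippocampus in 28 members (15.4% of all genes), from the neocortex in 26 (15.9%) and from the amygdala in 13 (12.1%). Of the remaining pairs, hippocampus and neocortex differed in 14 members (7.31%), hippocampus and amygdala in 18 (6.56%) and neocortex and amygdala in 13 (5.82%). Without a minimum fold, 520 of the 590 tests of a member in a pair had an adjusted p under 0.05 (88.1%, against 73% of such tests over all genes). Members with a flat profile were Kcnc4, whose highest mean was 1.4 times its lowest, Kcnd1 (1.62 times), Kcnk13 (1.62 times) and Kcna6 (1.73 times).

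The remaining members filled out the subfamilies. Among Kv7 genes Kcnq5 was at 86.1 ± 15.5 CPM in the neocortex and 83 ± 13 CPM in the hippocampus, which did not differ at the threshold, and at 2.59 ± 0.635 CPM in the cerebellum. Kcnq3 had its highest mean in the hippocampus (50.7 ± 7.42 CPM). The A-type channel gene Kcnd3 was at 153.4 ± 10.5 CPM in the cerebellum and 137.7 ± 16.3 CPM in the amygdala, again without a difference at the threshold, and the A-type Kv1 gene Kcna4 was at 31.2 ± 5.21 CPM in the hippocampus and 3.36 ± 0.801 CPM in the cerebellum. Kcnb2, of the Kv2 type, was at 3.13 to 11.8 CPM. Among leak channel genes Kcnk2 was at 69.9 to 71.4 CPM as mean in the hypothalamus, neocortex and amygdala and 17.9 ± 2.33 CPM in the cerebellum. In edgeR's test, whose TMM scaling CPM does not have, its amygdala and hypothalamus levels still differed at the threshold. Kcnk3 had the reverse order (141 ± 12.8 CPM in the cerebellum, at most 46.6 CPM as mean elsewhere), and Kcnk4 led in the neocortex (17 ± 2.04 CPM). Of the SK genes Kcnn1 had its highest mean in the neocortex (22.4 ± 2.26 CPM), Kcnn2 in the hippocampus and Kcnn3 in the hypothalamus. The modulatory genes Kcns2 (41.5 ± 4.6 CPM) and Kcns3 (11.6 ± 1.39 CPM) were highest in the hippocampus. The inward rectifier gene Kcnj2 was at 12.5 to 15.9 CPM in 4 regions and 3.12 ± 0.442 CPM in the cerebellum, where its relative Kcnj12 was at its highest.

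The promoters of 4 genes that the results turn on are given here from RefSeq (GRCm38.p6), each as 250 bases before and 50 bases after a transcript start, 5′ to 3′ on the gene's strand. Kcnj5 and Kcng4 are shown as the leading genes of the hypothalamus and the cerebellum. Kcnj4 is shown for its level in the hippocampus, neocortex and amygdala and its difference between states, and Kcnd2 for the smallest adjusted p between states. The windows are chr9:32344295-32344594 (minus strand), chr8:119635631-119635930 (minus strand), chr15:79505192-79505491 (minus strand) and chr6:21215096-21215395 (plus strand). The genes themselves span chr9:32314706-32344380 (Kcnj5), chr8:119623854-119635680 (Kcng4), chr15:79480226-79512511 (Kcnj4) and chr6:21215346-21729805 (Kcnd2) in GENCODE M21 on GRCm38. Capitals mark GGGCGG (the GC box), TATAAA (the TATA box) and CCAAT (the CCAAT box) on either strand.
Kcnj5: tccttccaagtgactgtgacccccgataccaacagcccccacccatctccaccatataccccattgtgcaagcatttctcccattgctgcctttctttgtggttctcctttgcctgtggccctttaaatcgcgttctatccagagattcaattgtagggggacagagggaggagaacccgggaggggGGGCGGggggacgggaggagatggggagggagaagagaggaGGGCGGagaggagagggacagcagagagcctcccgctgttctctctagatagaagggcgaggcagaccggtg
Kcng4: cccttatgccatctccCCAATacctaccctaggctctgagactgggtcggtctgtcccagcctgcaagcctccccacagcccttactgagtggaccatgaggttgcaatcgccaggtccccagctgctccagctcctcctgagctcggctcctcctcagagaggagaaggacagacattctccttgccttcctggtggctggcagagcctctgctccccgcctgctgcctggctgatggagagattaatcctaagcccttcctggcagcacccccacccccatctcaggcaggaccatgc
Kcnj4: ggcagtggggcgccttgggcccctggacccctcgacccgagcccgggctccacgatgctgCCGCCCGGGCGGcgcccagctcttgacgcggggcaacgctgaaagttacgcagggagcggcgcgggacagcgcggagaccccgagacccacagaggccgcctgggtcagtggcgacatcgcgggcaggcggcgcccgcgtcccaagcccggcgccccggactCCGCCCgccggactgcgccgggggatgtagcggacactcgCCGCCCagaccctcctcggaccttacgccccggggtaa
Kcnd2: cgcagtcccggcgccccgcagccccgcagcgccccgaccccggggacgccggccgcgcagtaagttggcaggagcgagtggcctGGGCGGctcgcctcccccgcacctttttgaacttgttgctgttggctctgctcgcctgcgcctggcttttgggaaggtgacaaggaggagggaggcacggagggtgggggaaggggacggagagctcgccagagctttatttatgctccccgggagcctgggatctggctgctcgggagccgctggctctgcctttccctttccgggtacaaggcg
The Kcnj5 window held 2 GC boxes, the Kcnj4 window 4 and the Kcnd2 window 1, and the Kcng4 window held 1 CCAAT box and no GC box. CpG dinucleotides numbered 10 for Kcnj5, 4 for Kcng4, 41 for Kcnj4 and 26 for Kcnd2. Windows were given for 41 of the 59 members, 59 windows in all. A GC box lay in 50.8% of these windows and in 35.7% of all 32851 windows, a TATA box in 5.08% and 13.6%, and a CCAAT box in 30.5% and 37.4%. A match is a match of letters and not a shown binding site.

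The subfamily make-up of each region was compared per kilobase of exon, since counts grow with transcript length. The summed level of the members was 605.1 ± 16.7 CPM per kb in the hypothalamus (SD, n = 16), 1134 ± 40.3 in the cerebellum (n = 15), 792.1 ± 30 in the hippocampus (n = 15), 920.9 ± 32.4 in the neocortex (n = 16) and 721.8 ± 46.4 in the amygdala (n = 15). Kv3 genes made up 25.1% ± 1.05 of the cerebellar sum and 10.4 to 13.9% elsewhere. The glial inward rectifiers Kcnj10 and Kcnj16 made up 18.4% ± 1 of the hypothalamic sum and 5.73 to 6.77% elsewhere, and Kv beta genes 24% ± 1.39 of the hippocampal sum and 6.06 to 15.5% elsewhere. The EAG/ERG/ELK share was 7.9% in the neocortex and 7.92% in the amygdala, and 1.93% in the cerebellum. Strong inward rectifiers held 10.4% in the amygdala, 8.93% in the neocortex and 2.11% in the hypothalamus. In each of these cases the library values of the named high region or regions did not overlap those of the region with the lowest share.

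**Figure D3:**
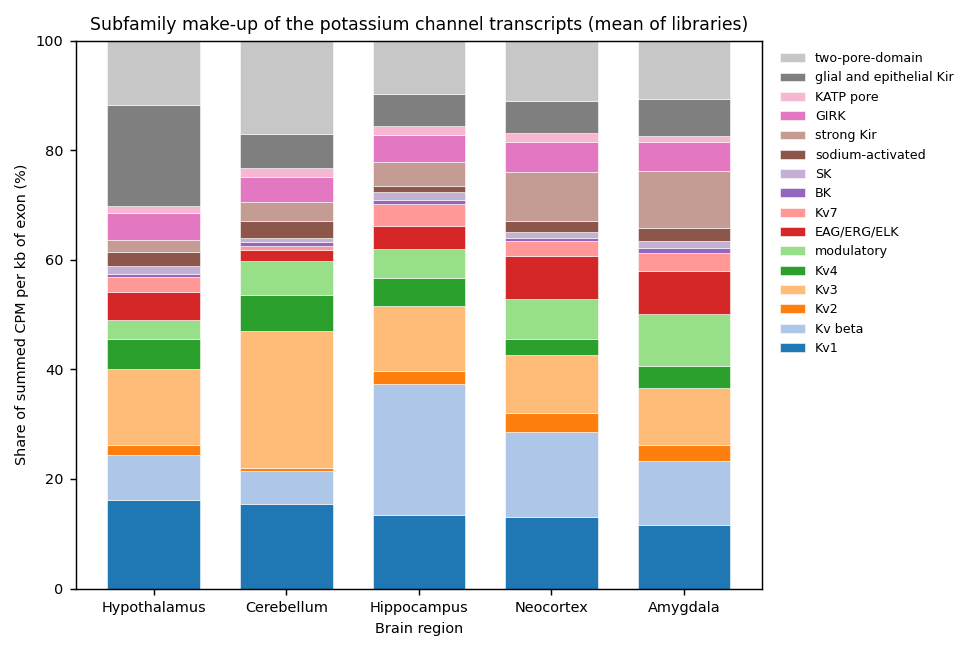
Share of each subfamily in the summed CPM per kb of exon of the 59 genes, in percent, as the mean over the libraries of a region. The Kv3 block is largest in the cerebellum (25.1%), the glial and epithelial Kir block in the hypothalamus (18.4%) and the Kv beta block in the hippocampus (24%).

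Per kilobase, the most abundant of the members reported was Kcnj10 in the hypothalamus (93.4 CPM per kb) and Kcnab2 in the hippocampus (163.6), the neocortex (100.6) and the amygdala (72.8). Kcnj10, the main inward rectifier of astrocytes and oligodendrocytes, was at 465.4, 496.5 and 571.5 CPM in the hypothalamus, above every library of the other regions. Its partner Kcnj16 had its highest mean there as well, at 69.8 ± 6.61 CPM. With the animal as a replicate block, Kcnj16 did not differ between the hypothalamus and the amygdala at the threshold.

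By mean CPM over the regions leading genes of several other subfamilies were as follows. Kcna2, the leading Kv1 gene, was at 628.2 ± 55.4 CPM in the cerebellum and 247.6 ± 24 CPM in the amygdala. The BK gene Kcnma1 was highest in the cerebellum (166 ± 16.2 CPM), the SK gene Kcnn2 in the hippocampus (42.4 ± 4.16 CPM), Kcnk1 of the two-pore-domain genes in the cerebellum (270.2 ± 16.9 CPM), and Kcnj11, the pore of the ATP-sensitive channel, in the cerebellum (64.1 ± 6.44 CPM) and neocortex (58.4 ± 3.07 CPM), which did not differ at the threshold. Kcnj9, the leading GIRK gene, was at 168.6 ± 19.3 CPM in the cerebellum and 167.6 ± 13.6 CPM in the neocortex. Despite these near-equal means, edgeR's test with TMM scaling separated the regions at the threshold.

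Differences between virgin and primiparous mice were small beside those between regions. In the hypothalamus 6 of 59 members had an adjusted p under 0.05 (10.2%), where 22.6% of all genes tested did. Of these 4 were lower in primiparous mice (11.8% of all genes were) and 2 were higher (10.8% of all genes). At an unadjusted p under 0.05 the count was 16 members (27.1%, against 37.1% of all genes). The share of members called was thus below that of all genes. The median log2 fold change of the members was 0.0028 and that of all genes 0.0145, and the members ranged from -0.31 (Kcnb2, adjusted p = 0.131) to 0.45 (Kcnj4).

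Kcnd2, the A-type channel gene of dendrites, had the smallest p of the members. Virgin hypothalami held 99.3, 112 and 117.2 CPM of it (lowest, median, highest) and primiparous hypothalami 82.1, 93 and 102.4 CPM. The groups overlapped, but all 8 primiparous libraries lay below the virgin mean and 6 below every virgin library. The log2 fold change was -0.26 (SE 0.0534, edgeR adjusted p = 0.00293), and it stayed past the threshold when any of the 16 libraries was left out. Kcnc2, the Kv3 gene that many forebrain interneurons express, went from 84.8, 92.6 and 121.4 CPM in virgin mice to 76.5, 83.7 and 89.4 CPM in primiparous mice. Its log2 fold change was -0.23 (SE 0.0681, adjusted p = 0.0176), with 8 of 8 primiparous libraries below the virgin mean, and it too kept its call in 16 of 16 fits that left out a library.

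The other 4 hypothalamic calls lost significance when some single libraries were left out. Kcna2, an axonal Kv1 gene, was at 276.1 to 316.9 CPM (median 294.6) in virgin and 214.8 to 334.5 CPM (median 254.6) in primiparous mice, a log2 fold change of -0.19 (SE 0.0675, adjusted p = 0.0424), and the primiparous range enclosed the virgin one. Kcnn3, an SK channel gene, was at 31.7 to 43.7 CPM (median 40.8) and 29.8 to 44.8 CPM (median 32.5), a log2 fold change of -0.23 (SE 0.0809, adjusted p = 0.0448), with 7 of 8 primiparous libraries below the virgin mean. Kcna3 was higher in primiparous mice, at 20.8 to 27.8 CPM (median 24.5) in virgin and 24.2 to 31.3 CPM (median 28.3) in primiparous mice, a log2 fold change of 0.19 (SE 0.0697, adjusted p = 0.0479), and 6 primiparous libraries lay above every virgin library. Kcna2, Kcnn3 and Kcna3 each kept an adjusted p under 0.05 in 4 of 16 fits with a library left out.

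Kcnj4, the strong inward rectifier, rose most. Virgin hypothalami held 6.16, 7.26 and 9.64 CPM and primiparous hypothalami 6.92, 10.4 and 18 CPM, so the groups overlapped. The log2 fold change was 0.45 (SE 0.16, adjusted p = 0.0435). The highest value belonged to primiparous mouse 413, without which the log2 fold change was 0.29 and the adjusted p 0.127. Its call held in 5 of 16 fits with a library left out.

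Several measured features moved with reproductive state in the hypothalamus, and their part in these results was not tested. The summed level of 8 thalamic marker genes was 488 to 726 CPM in virgin and 391.1 to 461.4 CPM in primiparous hypothalami, without overlap, and 6 of the 8 genes were lower in primiparous mice. None of the 8 was at 0: Slc17a6, which hypothalamic neurons also express, was at 391.4 and 305.1 CPM as group means, Tcf7l2 at 32 and 22.6 CPM and Prkcd at 27.4 and 18.6 CPM. The sum of the 4 genes listed for Purkinje cells, in the hypothalamus mostly Calb1, was 239.4 to 297.6 CPM and 200.1 to 240.9 CPM. Of these 4 genes 1 was higher in primiparous mice. Of the other lists, all 6 endothelial and mural genes were higher in primiparous hypothalami (summed 124.6 to 201.1 and 125.3 to 219.5 CPM). So were 5 of 7 striatal (226.6 to 249.8 and 238.5 to 276 CPM), 4 of 7 choroid plexus and 3 of 6 astrocyte genes. The same held for 4 of 6 oligodendrocyte, 3 of 5 microglial, 3 of 4 pituitary and 4 of 5 hypothalamic genes. It also held for 4 of 4 excitatory, 3 of 4 granule cell and 3 of 3 blood genes. The ranges of these sums overlapped between states. In bulk tissue fewer cells of a type and less RNA per cell cannot be told apart. Animal numbers had 3 digits for 2 virgin and 7 primiparous mice and 4 digits for 6 virgin and 1 primiparous mice, and what the numbering stands for is not given in the labels. With the number of digits as a covariate, no member had an adjusted p under 0.05, where 3 of all 13016 genes had (0.023%), and the log2 fold changes of the 6 were -0.16 for Kcnd2, -0.14 for Kcnc2, -0.15 for Kcna2, -0.26 for Kcnn3, 0.40 for Kcnj4 and 0.18 for Kcna3. Among the 3-digit mice Kcnd2 was at 99.3 and 103.1 CPM in the 2 virgin and at 82.1 to 102.4 CPM in the 7 primiparous hypothalami. With each library's trend in gene length and GC content removed, again no member was called, where 395 of all genes were (3.03%), and the log2 fold changes were -0.13 for Kcnd2, -0.14 for Kcnc2, -0.11 for Kcna2, -0.12 for Kcnn3, 0.28 for Kcnj4 and 0.01 for Kcna3.

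**Figure D4:**
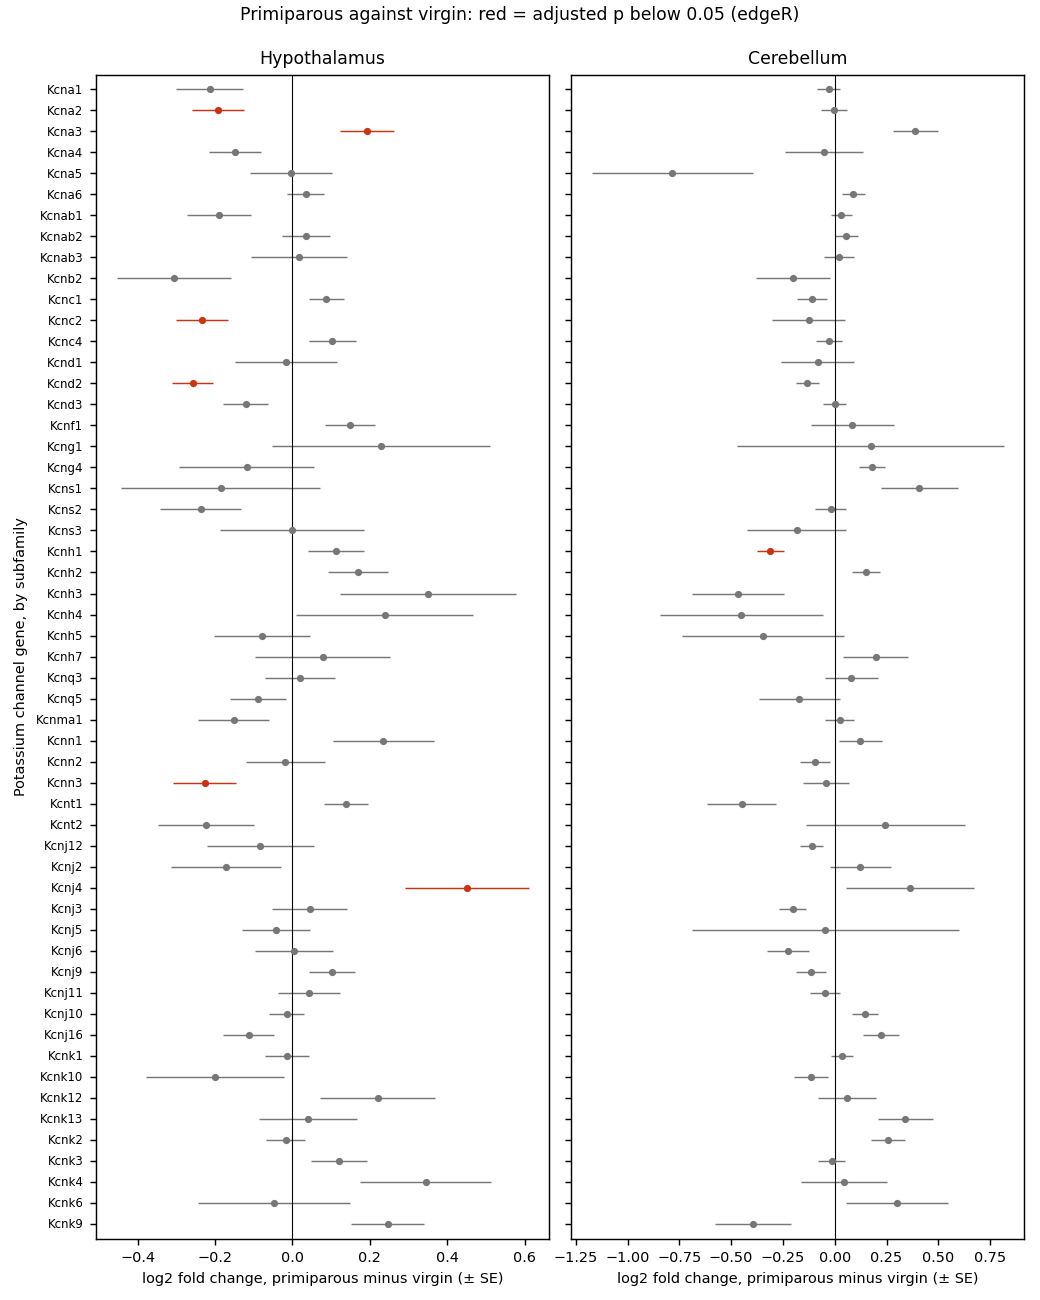
Log2 fold change, primiparous minus virgin, of 55 of the genes (rows, by subfamily) in the hypothalamus and the cerebellum, with points for the edgeR estimate, bars for its SE and red for an adjusted p under 0.05. The 6 red points of the hypothalamus lie between -0.26 and 0.45, and the single red point of the cerebellum is Kcnh1 at -0.31.

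In the cerebellum 1 member of 59 was called, Kcnh1 (1.69%, against 0.707% of all genes), and it was lower in primiparous mice (0.108% of all genes were called lower and 0.599% higher). Kcnh1 encodes an EAG channel. It was at 78.2, 85.7 and 92 CPM in virgin cerebella and at 53.8, 68.1 and 76.5 CPM in primiparous cerebella. The groups did not overlap, all 8 primiparous libraries lying below the lowest virgin library. The log2 fold change was -0.31 (SE 0.0647, edgeR adjusted p = 0.0274), and the call held in 9 of 15 fits that left out 1 library, with adjusted p up to 0.0913. With the number of digits as a covariate the log2 fold change was -0.27 and the adjusted p 0.709. Among 3-digit mice the virgin libraries held 78.2 and 89.4 CPM and the primiparous ones at most 76.5 CPM, and the primiparous 4-digit mouse, at 75.3 CPM, lay below the 4-digit virgin mice (78.5 to 92 CPM). Unadjusted, 15 members had a p under 0.05 (25.4%, against 19.5% of all genes). Kcna3 was next to the threshold, at 4.69 to 7.35 CPM in virgin and 6.7 to 8.95 CPM in primiparous cerebella (log2 fold change 0.39, adjusted p = 0.0704), and DESeq2 called it (adjusted p = 0.0287).

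Cell type markers also moved in the cerebellum. The 6 oligodendrocyte genes were all higher in primiparous mice (summed 4457 to 5920 CPM in virgin and 5357 to 7513 CPM in primiparous mice), the 5 microglial genes as well (76.8 to 91.3 and 89.7 to 111.8 CPM), and the 4 granule cell genes were all lower (3180 to 3572 and 2592 to 3567 CPM). The 4 Purkinje cell genes were all higher (3979 to 4745 and 4253 to 5465 CPM), and 5 of 6 astrocyte, 2 of 6 endothelial and mural, 6 of 7 choroid plexus, 5 of 7 striatal, 4 of 8 thalamic, 1 of 5 hypothalamic, 1 of 4 excitatory and 3 of 3 blood genes were. The pituitary genes Prl, Gh and Pomc were all higher too, with a sum over the list of 1.39 to 5.89 CPM in virgin and 1.25 to 148.4 CPM in primiparous mice, and Cga, the remaining gene of that list, had a mean of 0 in virgin mice. No gene of the oligodendrocyte, microglial or granule cell lists was at 0 in either group mean, and their part in the Kcnh1 difference was not tested.

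In the hippocampus, neocortex and amygdala no member was called, by edgeR's quasi-likelihood test or by DESeq2 or limma-voom, and edgeR called 0% of all genes there. DESeq2 called 12 of all genes in the hippocampus (0.0922%), 4 in the neocortex (0.0307%) and 95 in the amygdala (0.73%), and limma-voom called 0. At an unadjusted p under 0.05 there were 11 members in the hippocampus (18.6%, against 7.38% of all genes), 7 in the neocortex (11.9%, against 9.8%) and 7 in the amygdala (11.9%, against 11.9%). The member with the smallest p was Kcnh7, an ERG gene, in the hippocampus, at 9.43, 11.2 and 12.6 CPM in virgin and 10.7, 13.6 and 15.6 CPM in primiparous mice (log2 fold change 0.28, SE 0.0899, adjusted p = 0.564). In the neocortex it was Kcns1, at 23.3, 30.9 and 34.8 CPM and 32.9, 34.4 and 42.9 CPM (0.31, SE 0.0871, adjusted p = 0.479), and in the amygdala Kcnh2, an ERG gene, at 35.7, 37.8 and 60.9 CPM and 29.7, 31.7 and 41.8 CPM (-0.34, SE 0.102, adjusted p = 0.212). In each of these 3 cases the groups overlapped.

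**Figure D5:**
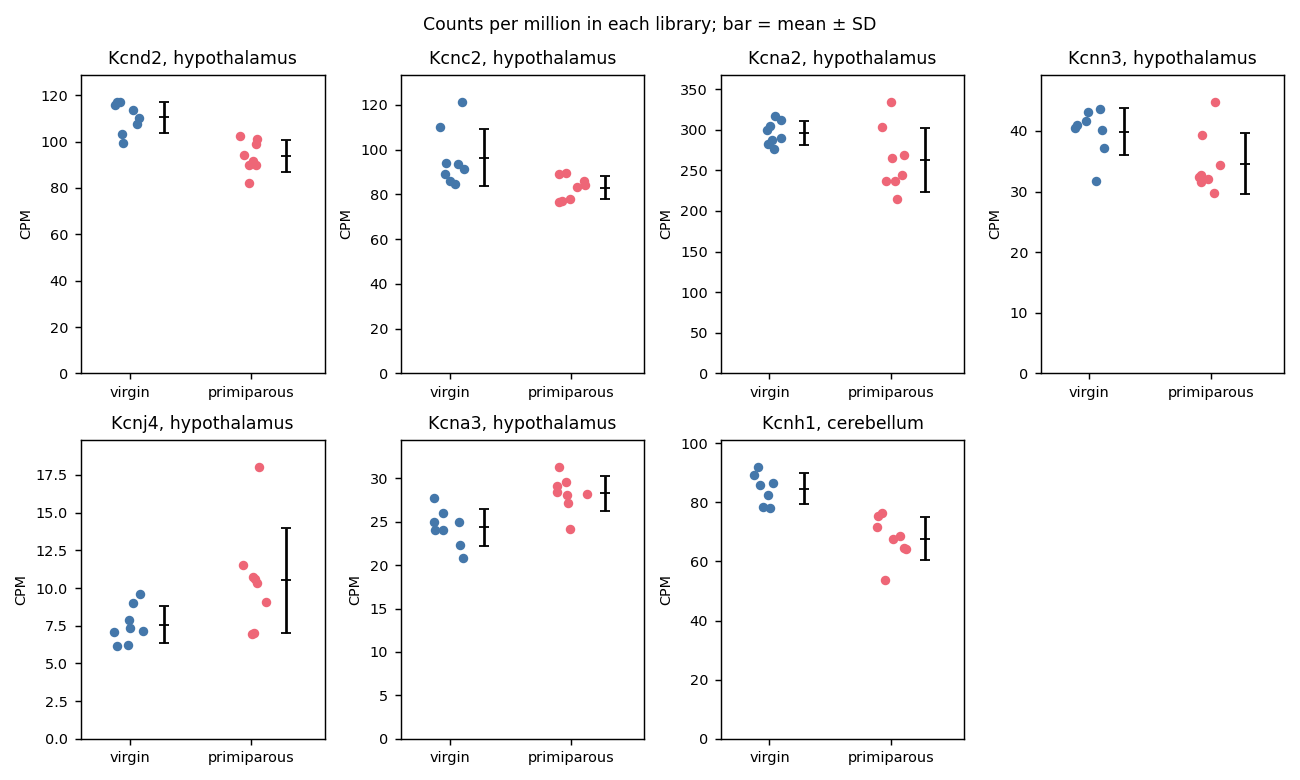
Level in CPM of the 7 genes with an adjusted p under 0.05, in each virgin and primiparous library of the region named above each plot, with the mean and SD beside the points. The groups overlap for each of the 6 hypothalamic genes, and do not overlap for Kcnh1 in the cerebellum.

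By subfamily, the hypothalamic calls fell in Kv1 (2 of 6 members), Kv3 (1 of 4), Kv4 (1 of 3), SK (1 of 3) and strong Kir (1 of 3), where 22.6% of all genes were called, and families of this size are too small to be set apart from that share. No member of the Kv2, Kv7, BK, GIRK, two-pore-domain, Kv beta, modulatory, EAG/ERG/ELK or sodium-activated subfamilies, of the glial inward rectifiers or of the ATP-sensitive channel was called there. All 3 Kv4 genes had a log2 fold change below 0 in the hypothalamus (-0.26 to -0.02), as did 4 of 6 Kv1 genes (-0.21 to 0.19) and 1 of 6 EAG/ERG/ELK genes (-0.08 to 0.35). Over the 59 members, 29 were below 0 (49.2%, against 47.3% of all genes), and with the length and GC correction 39 were (48.9% of all genes). In the amygdala 40 of 59 were below 0 (67.8%, against 49.5% of all genes), among them all 6 EAG/ERG/ELK genes, and in the hippocampus 22 of 59 (37.3%, against 50.1%), with none of these called. Without primiparous mouse 413 the hippocampal count was 26 (44.1%, against 50.9%). Markers moved in both regions: in the amygdala all 7 striatal genes (summed 408.7 to 735 CPM in virgin and 306.7 to 556.1 CPM in primiparous mice) and all 4 excitatory genes (1013 to 1673 and 926.2 to 1427 CPM) were lower and all 5 microglial genes higher (227.1 to 355.2 and 303.4 to 382.8 CPM) in primiparous mice. All 4 pituitary genes (1.36 to 15.1 and 1.16 to 181 CPM), all 3 blood genes (7.35 to 31.7 and 13.1 to 44.5 CPM) and 5 of 6 astrocyte genes (4229 to 6945 and 5270 to 6853 CPM) were higher in the amygdala as well, as were 5 of 6 endothelial and mural, 5 of 7 choroid plexus, 3 of 4 granule cell, 3 of 4 Purkinje cell, 3 of 5 hypothalamic, 3 of 8 thalamic and 1 of 6 oligodendrocyte genes. In the hippocampus all 4 granule cell genes (24.1 to 33.1 and 28 to 264.4 CPM) and all 4 Purkinje cell genes (153.8 to 200.5 and 156.1 to 547.2 CPM) were higher. So were all 4 pituitary genes there (1.02 to 2.22 and 0.921 to 73.2 CPM), and 4 of 6 astrocyte, 4 of 5 hypothalamic, 5 of 7 striatal, 3 of 4 excitatory, 3 of 6 endothelial and mural, 3 of 8 thalamic, 2 of 5 microglial, 2 of 3 blood, 1 of 6 oligodendrocyte and 1 of 7 choroid plexus genes. The part of these markers in the counts was not tested. In the cerebellum and in the neocortex 31 members were below 0 (52.5%, against 48.4% and 50.7% of all genes). With the length and GC correction the neocortical count was 37 (50% of all genes). In the neocortex all 4 pituitary and all 3 blood genes were higher in primiparous mice. So were 1 of 6 astrocyte, 1 of 7 choroid plexus, 5 of 7 striatal and 3 of 6 oligodendrocyte genes. Further, 3 of 6 endothelial and mural, 3 of 5 microglial and 1 of 5 hypothalamic genes were higher. The same held for 1 of 4 granule cell, 1 of 4 Purkinje cell, 1 of 4 excitatory and 3 of 8 thalamic genes. Their part in the counts was not tested. The summed level of all members was 3576 ± 73.5 CPM in virgin (SD, n = 8) and 3599 ± 107.7 CPM in primiparous hypothalami (n = 8), and 6590 ± 337.8 CPM (n = 7) and 6414 ± 227.7 CPM (n = 8) in the cerebellum, with overlapping ranges.

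Auxiliary subunits and partner proteins of these channels form a separate list of 29 genes, of which 18 were tested. In the hypothalamus 5 of the 18 were lower and 1 was higher in primiparous mice at an adjusted p under 0.05, where 11.8% of all genes were called lower and 10.8% higher. Kcnip4, a calcium-binding partner of Kv4 channels, fell by 0.40 on the log2 scale (SE 0.082, adjusted p = 0.0028), from 59.1, 74.5 and 94.2 CPM in virgin to 42.5, 59.5 and 64.8 CPM in primiparous mice. Dpp10, a further Kv4 partner, fell by 0.28 (SE 0.07, adjusted p = 0.00809), from 128.7, 158 and 179 CPM to 104.7, 133 and 145.9 CPM. Dpp6, also a Kv4 partner, had a log2 fold change of 0.04 (adjusted p = 0.443). Cntnap2, which clusters Kv1 channels beside the node of Ranvier, fell by 0.16 (adjusted p = 0.013) and was the one gene of these whose groups did not overlap, at 167.9 to 183 CPM in virgin and 148.7 to 167.8 CPM in primiparous mice. The scaffold gene Dlg2 fell by 0.20 (adjusted p = 0.0148), the Kv1 partner Lgi1 by 0.21 (adjusted p = 0.0285), and the scaffold gene Dlg4 rose by 0.22 (adjusted p = 0.00867). None of these 6 calls held with the number of digits as a covariate, with log2 fold changes of -0.29 for Kcnip4, -0.16 for Dpp10, -0.12 for Cntnap2 and for Dlg2, -0.08 for Lgi1 and 0.14 for Dlg4 and adjusted p of at least 0.2023. None held with the length and GC correction, where they were -0.17, -0.05, -0.04, -0.08, -0.10 and 0.28 in the same order. The adjusted p was then 0.0684 for Dlg4 and 0.0862 for Kcnip4. The median log2 fold change of the 18 genes was -0.04, and none was called in the other 4 regions. Of these 18, 4 had an unadjusted p under 0.05 in the cerebellum (19.5% of all genes), 2 in the hippocampus (7.38%), 1 in the neocortex (9.8%) and 3 in the amygdala (11.9%).

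Whether the effect of reproductive state differed between the hypothalamus and another region was tested as an interaction in edgeR. These 4 comparisons share the hypothalamus libraries and are not independent of each other. Each was fitted jointly on the libraries of both regions, so its difference can deviate slightly from that of the fold changes fitted within each region. Against the cerebellum 5 of 59 members differed (8.47%, against 15.5% of all genes). Kcnh1 had a log2 fold change of 0.11 in the hypothalamus and -0.31 in the cerebellum, a difference of 0.41 (SE 0.0997, adjusted p = 0.00599). Kcnt1 differed by 0.58 (SE 0.171, adjusted p = 0.0232), its log2 fold change being 0.14 in hypothalamic and -0.45 in cerebellar tissue. In the cerebellum virgin mice held 288.1 to 510.2 CPM and primiparous mice 195.8 to 392.8 CPM. Kcnk9, a leak channel gene, differed by 0.64 (SE 0.206, adjusted p = 0.033), and the glial gene Kcnj16 by -0.35 (SE 0.113, adjusted p = 0.0329). Kcnk2, a mechanosensitive leak channel gene, differed by -0.28 (SE 0.0882, adjusted p = 0.0272), with -0.02 in the hypothalamus and 0.26 in the cerebellum.

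Against the hippocampus 9 of 59 members differed (15.3%, against 17.2% of all genes), led by Kcnd2 with a difference of -0.36 (SE 0.0754, adjusted p = 0.00316) and Kcnj4 with 0.55 (SE 0.173, adjusted p = 0.0263). Without the hypothalamus library of primiparous mouse 413, the one with the highest Kcnj4, 5 members differed (14.9% of all genes), Kcnd2 by -0.36 (adjusted p = 0.00488) and Kcnj4 by 0.38 (adjusted p = 0.0515). Without that mouse's hippocampus library 10 did (19.2% of all genes), Kcnd2 by -0.33 (adjusted p = 0.00327) and Kcnj4 by 0.55 (adjusted p = 0.0277). With the animal as a replicate block 4 of the 59 did (11.1% of all genes), namely Kcnd2 (-0.35, adjusted p = 0.0161), Kcnma1, Kcnd3 and Kcnj4. Against the amygdala 5 differed (8.47%, against 18.2% of all genes), led by Kcnh2 with 0.52 (SE 0.133, adjusted p = 0.00675), and against the neocortex none did (0% of all genes). Without the hypothalamus library of mouse 413, 3 differed from the amygdala (15.7% of all genes), Kcnh2 by 0.48 (adjusted p = 0.0135), and that of Kcnj4 went from 0.67 (adjusted p = 0.0284) to 0.50 (adjusted p = 0.0546). The block left 4 calls against the cerebellum (11.5% of all genes), where that of Kcnj16 was lost, 4 against the amygdala (14% of all genes) and none against the neocortex. With the number of digits of the animal number in the model, Kcnh2 against the amygdala (difference 0.53, adjusted p = 0.0426) was the single member past the threshold, where 3.61% of all genes were. That call rested on the amygdala library of virgin mouse 405, which held the highest Kcnh2 level of that region. Without it the difference was 0.41 (adjusted p = 0.0196) in the model with no covariate, where 2 members differed (13.9% of all genes), and 0.33 (adjusted p = 0.301) with the covariate, where none did (0.3% of all genes). The covariate left no member and 0 of all genes against the cerebellum and no member and 1 of all genes against the hippocampus. With the block and the length and GC correction together no member differed from the hippocampus or the amygdala (51 and 99 of all genes). Kcnd2 against the hippocampus was then at -0.19 (adjusted p = 0.183) and Kcnj4 at 0.31 (adjusted p = 0.51), and Kcnh2 against the amygdala at 0.17 (adjusted p = 0.512).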

How the data were processed

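Reads of single-end libraries were aligned by the authors with HISAT2 to mm10, and the deposited table holds whole-number counts per gene from featureCounts, without normalization. Whether strand was used in counting is not given in the sources used here, so overlapping genes cannot be told apart. The authors also deposited a log2 table of 13016 genes, described as log2(CPM + 4); its values are within 5e-05 of log2 of the count divided by a size factor, plus 4, and a median of 3.94 from log2(CPM + 4). It served here for gene symbols and the filter only. CPM was computed from the counts and each library's total, without the TMM scaling of the tests. A ratio of CPM between regions and the tested difference can therefore disagree. Of 80 samples, 3 had no column and were not analysed here. All 3 were from virgin mice, in the cerebellum, hippocampus and amygdala. The study's methods report outliers taken out of these same regions, judged by principal component analysis. The virgin groups there were thus trimmed after the data were seen.

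The members and gene lists were chosen with earlier results of these data known. Counts were analysed in R 4.3.3 with edgeR 4.0.16 (TMM, robust quasi-likelihood F-test), each region alone for reproductive state, and all 77 libraries in 10 groups for regions. Adjusted p-values are Benjamini-Hochberg values over 13016 genes. Standard errors are the log2 fold change divided by the root of F. limma 3.58.1 (voom) and DESeq2 1.42.0 were alternatives, as were other scalings and filters, a covariate, a length and GC correction, a replicate block and leaving out libraries. Exon length and GC content came from GENCODE M21 and were known for 97.05% of genes. Summaries and plots used Python 3.11.15, numpy 2.4.6, pandas 2.3.3 and matplotlib 3.10.9. The fits were run on simulated counts with planted 1.5-fold and 2-fold changes, larger than the called differences between states. Those counts held no trend with animal number, gene length or GC content, so they cannot show how the calls depend on these.

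The labels give each library its animal, so equal numbers pair libraries of 1 mouse. Deviations from group means of such libraries correlated with medians between -0.0694 and 0.108, depending on the regions paired, and those of different animals with medians between -0.0297 and 0.0182.

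Named genes were taken by rule: members called for state, up to 24 per region (lowest, median and highest library for 8), the leading member by p where a region had no call, the 3 highest and 1 lowest members of each region, the most abundant per kb, the leading gene of each subfamily and up to 6 interaction calls against the cerebellum. Some members that this rule names are not reported here and are left out of the plots by gene. Other members named in the text were chosen after their values were seen. Marker lists for thalamus, choroid plexus, striatum, cerebellar granule and Purkinje cells, glia, vessels, pituitary, hypothalamus, excitatory neurons and blood were written from general knowledge. The replicates measure the spread between animals.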

Additional observations from a re-analysis of the deposited data

Results flagged for a closer look

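Of 38 groups of library values checked, 2 had a library far from the others, and chance alone would give such a library in about 1 of 20 groups. Kcnh2 in the amygdala was at 60.86 CPM in virgin mouse 405, where the other 6 virgin libraries lay between 35.68 and 45.88 CPM. Without that library the log2 fold change was -0.24 and the adjusted p 0.499. Kcnj4 in the hypothalamus was at 18.03 CPM in primiparous mouse 413, where the other primiparous libraries lay between 6.92 and 11.56 CPM. Without it the log2 fold change was 0.29.

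The effect of reproductive state differed between regions, by the interaction test, for the following members. Each value is the log2 fold change in the hypothalamus minus that in the other region, from a joint fit of both regions. Against the cerebellum it was 0.415 for Kcnh1, 0.58 for Kcnt1, 0.637 for Kcnk9, -0.283 for Kcnk2 and -0.346 for Kcnj16. Against the hippocampus it was 0.554 for Kcnj4, -0.358 for Kcnd2, -0.569 for Kcnb2, -0.457 for Kcnt2, -0.284 for Kcnc2, -0.347 for Kcnma1, -0.241 for Kcnd3, -0.252 for Kcna2 and -0.323 for Kcna1. Against the amygdala it was 0.519 for Kcnh2, 0.674 for Kcnj4, 0.462 for Kcnk9, -0.386 for Kcnj16 and -0.28 for Kcnd3. With the animal as a replicate block, Kcnj16 against the cerebellum, Kcnk9 against the amygdala, and Kcnb2, Kcnt2, Kcnc2, Kcna2 and Kcna1 against the hippocampus no longer passed the threshold. With the block and the length and GC correction together, Kcnh1 and Kcnk2 against the cerebellum were the ones of these that passed it. With the number of digits of the animal number as a covariate it was Kcnh2 against the amygdala alone, and without the amygdala library of virgin mouse 405 that one did not pass either (adjusted p = 0.301). Without the hypothalamus library of primiparous mouse 413, Kcnj4 had an adjusted p of 0.0515 against the hippocampus and 0.0546 against the amygdala.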

How the results depend on the processing

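In the hypothalamus the 6 calls for reproductive state became 3 without the filter on low counts (all genes from 2939 to 2340), 0 with the number of digits of the animal number as a covariate (all genes 3) and 0 with the length and GC correction (all genes 395), and 4 to 7 with the other tests and scalings (all genes 2571 to 3327, or 19.8% to 25.6%). In the cerebellum the single call became 2 with DESeq2 (all genes 505) and 0 with the covariate (all genes 0). The cause of these changes was not tested. Leaving out 1 library at a time gave 2 to 12 calls in the hypothalamus, with 12 without primiparous mouse 418 (all genes 4119), 11 without virgin mouse 409 (3933) and 2 without primiparous mouse 425 (2839) or virgin mice 4487 (2061), 4488 (2106) or 4491 (2061). It gave 0 to 3 calls in the cerebellum, with 3 without primiparous mouse 4493 (all genes 903) and 0 without primiparous mice 413, 414 or 415 or virgin mice 409, 4486 or 4487 (all genes 6 to 42), and 0 in the other regions (all genes at most 31, in the amygdala without primiparous mouse 413). At 1.5-fold in place of 2-fold the regional calls rose to 11 for the hypothalamus (12.8% of all genes), 15 for the cerebellum (15.2%), 19 for the hippocampus (9.1%), 23 for the neocortex (9.06%) and 21 for the amygdala (10.8%). They were 7, 12, 13, 14 and 10 again with a replicate block, and without hippocampus library 413, which was left out only once the data had been seen. The replicate block gave 516 pairwise calls in 590 tests, where the fit without a block gave 520. It left 4 of 5, 4 of 9 and 4 of 5 interaction calls against the cerebellum, hippocampus and amygdala, and the block with length and GC correction gave 3, 0 and 0 (all genes 527, 51 and 99), the 3 being Kcnk2, Kcnh1 and Kcnj3. The covariate left 0, 0 and 1 (all genes 0, 1 and 470). Libraries of mouse 413 were also left out of the interaction test, a choice made once the data had been seen. Without its hypothalamus library 4, 5 and 3 members differed from the cerebellum, hippocampus and amygdala (all genes 1761, 1943 and 2038). Without its library of the other region 4, 10 and 7 did (all genes 1647, 2497 and 2637). Against the neocortex the count was 0 in either case (all genes 0). Without the amygdala library of virgin mouse 405, also left out once the data had been seen, 2 members differed from the amygdala (all genes 1812). The covariate without amygdala library 405 left 0 (all genes 39). Of the values of named genes for reproductive state under an alternative, 154 kept direction and side of the threshold, 73 lost the threshold and 0 turned direction. These values cover the 7 called genes together with Kcnh7, Kcns1 and Kcnh2. The latter were not called to begin with and had no threshold to lose, so all 73 losses fell on the called genes. The 154 therefore overstate how stable the calls were. Scaling by RLE in place of TMM shifted log2 fold changes by a median of at most 0.0048 over all genes and 0.0053 over the members. The length and GC correction shifted those of the members by a median of -0.0686 in the hypothalamus and -0.0382 in the neocortex, and those of all genes by -0.0031 and 0.0019. Genes under about 5 CPM rest on few reads, as Kcng1 and Kcnj5 in the cerebellum, and their fold changes are loosely bounded.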
